A study of Mus musculus with 8 samples.

Results

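Short interspersed nuclear elements (SINEs) are short repeated sequences of the genome that encode no protein, and 32 of the 1208 repeat families counted in this study are described here. They were chosen by name alone, as every repeat family whose name marks it as a member of the B1, B2, B4, ID or MIR lineages of SINEs, and no measured value entered the choice. By name they fall into 14 families of the B1 lineage (names starting B1 or PB1), 5 of the B2 lineage (B2 and B3 names), 4 of the B4 lineage (B4, B4A, ID_B1 and RSINE1), 4 of the ID lineage (ID, ID2, ID4 and ID4_) and 5 of the MIR lineage. Strand-specific total RNA was sequenced from fractionated spermatogenic cells of C57BL/6 males aged between 3 and 6 months. The 8 libraries formed 4 groups of 2, each library from the cells of a single mouse: H3.3B knock-out post-meiotic cells (KO, genotype H3.3BKO/KO :Actin Cre WT), wild-type post-meiotic cells (WT, genotype H3.3BWT/WT :Actin Cre WT), KO meiotic cells and WT meiotic cells. H3.3B is the protein of the gene H3f3b, 1 of the pair of genes that encode the replacement histone H3.3, and the other gene, H3f3a, is intact in all groups. The post-meiotic fraction consisted mainly of round spermatids. The labels do not say whether the meiotic and post-meiotic libraries of a genotype came from the same mice. The KO allele was made by Cre recombination at loxP sites placed around every coding exon of H3f3b, in mice that the labels give as WT for the Actin Cre, and no germ-cell promoter is named for it.

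A SINE is copied through RNA, with the enzymes of LINE-1 elements, and full-length copies carry an internal promoter for RNA polymerase III, the enzyme that also makes transfer RNA and 5S RNA. B1 elements descend from 7SL RNA, the RNA of the signal recognition particle, while B2, ID and MIR elements descend from transfer RNAs, and the B4 lineage joins an ID-like part to a B1-like part. PB1 families are forerunners of B1, and MIR families are ancient and shared among mammals. Many SINE copies lie inside genes or downstream of them and are read by RNA polymerase II as part of a longer RNA, so a count per family holds both kinds of transcript.

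To show what these elements look like, a B1 copy and a B2 copy were read from the mouse genome (build mm9), together with the Bc1 gene, the founder gene of the rodent ID family. Words of low complexity (mostly 1 base, or short repeats) were set aside first. The most frequent 16-base word of chromosome 19 that remained, with 2945 occurrences on both strands, was extended base by base and gave a B1 sequence. The most frequent word unrelated to it, with 1565 occurrences, gave a B2 sequence. The nearest genomic copy of each is printed, named from the known sequence of B1 and B2 and not from a family consensus. The B1 copy (141 bases, 1 difference from the extended word) is at chr19:42231965-42232105 on the + strand, and the B2 copy (179 bases, 8 differences) at chr19:30315368-30315546 on the - strand. Neither overlaps a gene of GENCODE vM1. Bc1 (154 bases, RefSeq sequence placed in mm9 by exact match) is at chr7:152100375-152100528 on the + strand and lies in an exon of the GENCODE gene AC161763.1. Capitals mark GTTCNANNCC, the core of the B box of polymerase III promoters, on the strand printed. A B1 or B2 word that held it only on the other strand would have been turned to that strand.
B1: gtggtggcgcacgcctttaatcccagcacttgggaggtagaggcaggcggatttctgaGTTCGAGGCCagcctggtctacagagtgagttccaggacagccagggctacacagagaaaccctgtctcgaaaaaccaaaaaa
B2: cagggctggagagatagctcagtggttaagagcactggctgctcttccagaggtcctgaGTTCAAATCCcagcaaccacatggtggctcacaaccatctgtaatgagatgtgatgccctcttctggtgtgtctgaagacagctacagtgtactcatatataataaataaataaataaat
Bc1: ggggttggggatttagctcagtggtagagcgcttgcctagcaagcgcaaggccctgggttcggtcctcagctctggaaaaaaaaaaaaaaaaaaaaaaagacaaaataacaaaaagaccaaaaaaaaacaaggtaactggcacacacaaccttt
The B1 and B2 copies hold the motif once each and Bc1 does not hold these letters. Of all windows of 141 bases on chromosome 19, 3.14% held it on either strand, as did 4.03% of windows of 179 bases. On 1 strand alone the shares were 1.59% and 2.03% in that order. The B1 copy ends in a run of A, as retroposed elements do, and the B2 copy ends in repeats of aaat.

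The libraries held between 8995050 and 18865521 reads assigned to repeat families and between 57853283 and 92836630 reads assigned to genes. H3f3b itself was at 6.43 and 7.70 counts per 1000000 (CPM, scaled with TMM factors) in KO post-meiotic cells, against 237 and 217 CPM in WT post-meiotic cells, and at 9.84 and 11.2 CPM in KO meiotic cells, against 568 and 554 CPM in WT meiotic cells. Markers of meiotic prophase (9 of 10 listed genes found) summed to between 4732 and 5084 CPM in post-meiotic and between 6467 and 6835 CPM in meiotic libraries. Spermatid markers (10 of 10 found) summed to between 28250 and 31800 CPM in post-meiotic and between 8028 and 11130 CPM in meiotic libraries, and no listed gene that was found was at 0 in any group.

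SINE reads made up between 20.2% and 22.6% of the repeat reads. They were 21.3% and 20.5% of repeat reads in KO post-meiotic cells, 20.2% and 20.9% in WT post-meiotic cells, 20.6% and 21.6% in KO meiotic cells, and 22.6% and 21.5% in WT meiotic cells. The genotypes overlapped at both stages (exact permutation test, two-sided, p = 0.667 in each, where 2 libraries against 2 cannot go below 0.333). The post-meiotic libraries as a whole (20.7% on average) overlapped the meiotic ones (21.6%; exact p = 0.114, n = 4 each).

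The denominator of these shares was itself unsteady. The repeat table includes structural RNA genes that RepeatMasker lists as families, and 7SL RNA alone took between 13.4% and 19.4% of repeat reads. 7SL RNA stood at 15.7% and 17.0% in KO post-meiotic cells, 15.0% and 13.4% in WT post-meiotic cells, 19.4% and 17.1% in KO meiotic, and 13.6% and 15.6% in WT meiotic libraries. It was higher in both KO libraries than in both WT libraries at each stage. 7SK RNA, which holds back transcription elongation, took 7.46% and 7.80% of repeat reads in KO post-meiotic cells, 9.13% and 7.78% in WT post-meiotic cells, 10.98% and 10.5% in KO meiotic cells and 9.57% and 10.8% in WT meiotic libraries. The counts of calls in each comparison are therefore given on the scale of all repeat reads, on that of gene reads, and on that of repeat reads without 7SL, 7SK and the ribosomal RNA families, a scale chosen after the data had been seen. Levels of single families in each library are per 1000000 repeat reads unless another scale is named.

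**Figure D1:**
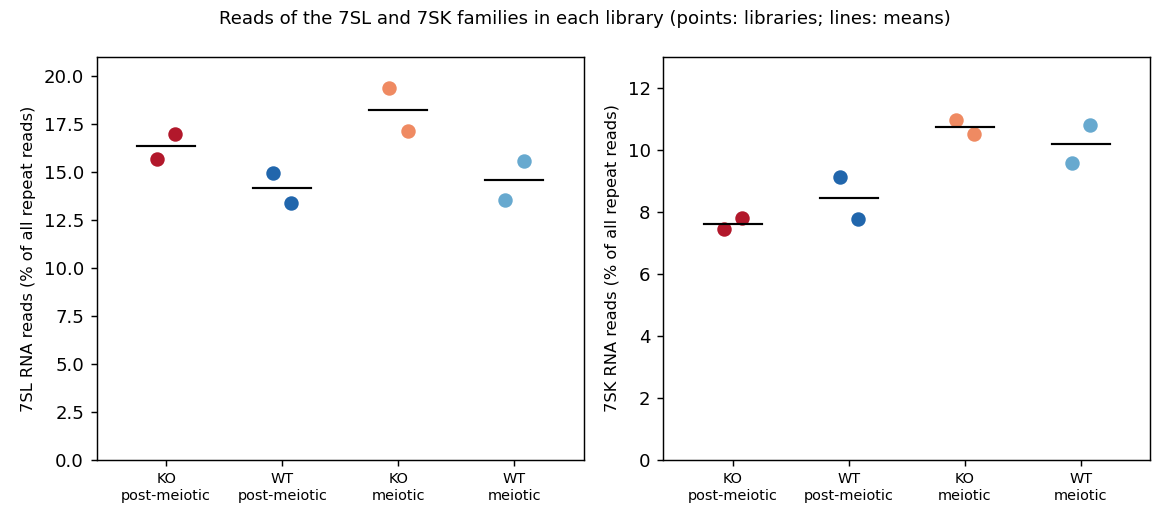
Reads of the 7SL RNA family (left) and the 7SK RNA family (right) as a percentage of all repeat reads (vertical axes, starting at 0) in KO post-meiotic cells, WT post-meiotic, KO meiotic and WT meiotic cells. Each point is a library and each line the mean of 2. 7SL RNA ranged from 13.4% to 19.4%.

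Without those structural RNAs the replicates came together and the stages separated. SINEs were then 28.4% and 28.3% of the remaining repeat reads in KO post-meiotic cells, 27.6% and 27.4% in WT post-meiotic cells, 30.2% and 30.5% in KO meiotic cells and 29.9% and 29.7% in WT meiotic cells. All 4 post-meiotic libraries were below all 4 meiotic ones (exact permutation test, two-sided, p = 0.0286, the smallest that 4 against 4 can give, and 0.214 after Benjamini-Hochberg adjustment over 30 class-level tests). Both KO libraries were above both WT libraries at each stage (exact p = 0.333, the smallest possible), by 0.844 percentage points in post-meiotic and 0.552 in meiotic cells. Sums of markers of other cells moved with the stage over the same libraries. Leydig cell markers (7 of 7 found) lay between 18.2 and 35.7 CPM in post-meiotic and between 141 and 255 CPM in meiotic libraries, those of peritubular cells and fibroblasts (6 of 6) between 108 and 276 CPM in post-meiotic and between 21.7 and 33.6 CPM in meiotic libraries, and those of leukocytes (6 of 6) between 36.6 and 78.9 CPM in post-meiotic and between 6.36 and 16.9 CPM in meiotic libraries. Their part in this and the later stage results was not tested.

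Against gene reads the same SINE reads gave a larger stage difference and a genotype difference at the later stage. There were 36828 and 37614 SINE reads per 1000000 gene reads in KO post-meiotic cells, 31569 and 30988 in WT post-meiotic cells, 40818 and 43896 in KO meiotic cells and 44047 and 40461 in WT meiotic cells. The post-meiotic libraries did not overlap the meiotic ones (exact p = 0.0286, n = 4 each; 0.214 adjusted). The KO level was 1.19 times the WT level in post-meiotic cells, with no overlap (exact p = 0.333, n = 2 each), and 1.00 times in meiotic cells, with overlap (exact p = 1, n = 2 each). The whole of the repeat reads moved likewise, at 17.3% and 18.4% of gene reads in KO post-meiotic cells, 15.7% and 14.9% in WT post-meiotic cells, 19.8% and 20.3% in KO meiotic, and 19.5% and 18.8% in WT meiotic libraries. In bulk RNA, fewer cells of a type and less RNA per cell cannot be told apart.

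**Figure D2:**
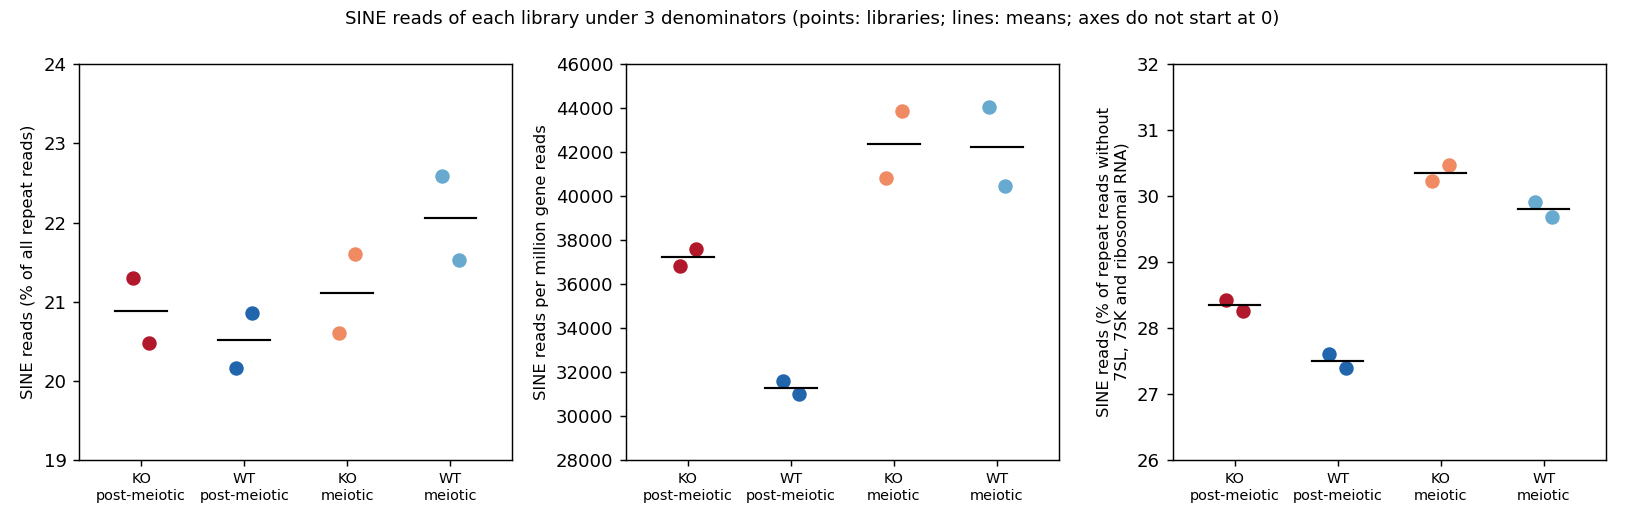
SINE reads of each library as a percentage of all repeat reads (left), as SINE reads per 1000000 gene reads (middle) and as a percentage of repeat reads without 7SL, 7SK and ribosomal RNA (right). Points are libraries, lines are means of 2, and the vertical axes do not start at 0. The groups are mixed on the left, while on the right the post-meiotic libraries, between 27.4% and 28.4%, all lie below the meiotic ones, between 29.7% and 30.5%.

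SINE reads were also lower against LINE-1 reads, those of the elements whose enzymes copy SINEs, in post-meiotic cells. The ratio of SINE reads to the reads of 106 LINE-1 families was 1.17 and 1.16 in KO post-meiotic cells, 1.16 and 1.16 in WT post-meiotic cells, 1.45 and 1.45 in KO meiotic cells and 1.42 and 1.42 in WT meiotic libraries. The stages did not overlap (exact p = 0.0286, n = 4 each; 0.214 adjusted), and KO stood at 1.45 against 1.42 in WT in meiotic cells, with no overlap (exact p = 0.333, n = 2 each). This ratio does not depend on the total used. LINE-1 reads were 17.8% of repeat reads on average in post-meiotic and 15.1% in meiotic libraries.

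All 32 families were well measured, with at least 5418 reads in every library, and all passed the minimum of 5 reads per 1000000 repeat reads (RPM) in every library. B3, an older relative of B2, had the most reads, with a mean of 25855 RPM over the 8 libraries, which made it the third of all 1208 families. ID_B1 (17474 RPM), RSINE1 (16112 RPM) and B4A (13173 RPM), all of the B4 lineage, came next, then B3A (12368 RPM) and PB1D10 (11931 RPM). These 6 families held 45.8% of SINE reads. ID2, at 673 RPM, was the lowest. Family totals grow with the number of genomic copies, so this order is one of reads and not of activity per copy. The highest library exceeded the lowest by between 1.09 times (PB1D7) and 1.35 times (ID2).

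The B1 lineage was the largest in every library, and the B2 and B4 lineages lay close together and changed places between libraries. The B1 lineage gave 35.8% and 35.7% of SINE reads in KO post-meiotic cells, 35.7% and 35.5% in WT post-meiotic cells, 37.2% and 37.3% in KO meiotic cells and 37.0% and 37.1% in WT meiotic libraries. The B2 lineage gave between 25.6% and 26.4%, and the B4 lineage between 24.8% and 26.1%. The ID lineage gave between 3.55% and 3.62% in post-meiotic and between 3.64% and 3.66% in meiotic libraries. The MIR lineage gave 8.71% and 8.62% in KO post-meiotic cells, 9.11% and 9.23% in WT post-meiotic cells, 8.06% and 7.84% in KO meiotic cells and 8.13% and 8.35% in WT meiotic libraries. The B1 and ID parts were thus lower, and the B4 and MIR parts higher, in all 4 post-meiotic libraries than in all 4 meiotic ones. At each stage the MIR and ID parts were lower, and the B2 part higher, in both KO libraries than in both WT libraries. The B1 part was higher and the B4 part lower in KO in meiotic cells, and both overlapped between genotypes in post-meiotic cells.

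The first comparison asked which SINE families differed between the stages in WT. On the scale of all repeat reads, none of the 32 passed the study's rule of a log2 change of more than 0.5 in either direction at an adjusted p below 0.01 (edgeR's quasi-likelihood test with Benjamini-Hochberg adjustment over 967 families), where 22.9% of all families tested did. At the adjusted p alone, 12 members fell and 2 rose, while 23.8% of all families fell and 30.7% rose. At an unadjusted p under 0.05 there were 22, where 67.6% of all families were, and DESeq2 called 28, of which 27 were lower, where 28.5% of all families were. The median log2 change was -0.11 over the members and 0.08 over all families. The count of 14 dropped to 6 without WT meiotic replicate 1, to 8 without WT post-meiotic replicate 1 and to 6 without WT post-meiotic replicate 2. Over these libraries Leydig markers lay between 18.2 and 27.5 CPM in WT post-meiotic cells and between 209 and 255 CPM in WT meiotic cells, Sertoli markers (7 of 8 found) between 69.0 and 81.7 CPM and between 107 and 122 CPM, and spermatogonial markers (8 of 8) between 52.9 and 53.1 CPM and between 66.9 and 74.5 CPM in that order. Peritubular and fibroblast markers lay between 108 and 142 CPM in WT post-meiotic cells and between 29.6 and 33.6 CPM in WT meiotic cells, leukocyte markers between 36.6 and 39.1 CPM and between 6.36 and 7.18 CPM, endothelial markers (5 of 5) between 44.0 and 46.2 CPM and between 24.03 and 26.3 CPM, and red cell markers (5 of 5) between 10.6 and 11.1 CPM and between 2.28 and 2.43 CPM in that order.

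ID2 fell furthest. It had 587 and 602 RPM in WT post-meiotic cells, against 790 and 755 RPM in WT meiotic cells (log2 change -0.38 ± 0.06, SE, adjusted p = 1.27e-10 by edgeR). B1_Mur3, an older rodent B1 family, had 3414 and 3480 RPM in WT post-meiotic cells, against 4377 and 4193 RPM in WT meiotic cells (log2 change -0.31 ± 0.05). B1_Mus1, a younger one, had 7626 and 7886 RPM in WT post-meiotic cells, against 9602 and 9080 RPM in WT meiotic cells (log2 change -0.27 ± 0.05). In each of the 3 families both post-meiotic libraries lay below both meiotic ones. MIR3, an ancient family, went the other way, with 1616 and 1700 RPM in WT post-meiotic cells, against 1453 and 1415 RPM in WT meiotic cells (log2 change 0.21 ± 0.05, edgeR adjusted p = 0.000177). MIRc had 3656 and 3836 RPM in WT post-meiotic cells, against 3400 and 3366 RPM in WT meiotic cells (log2 change 0.15 ± 0.05). MIR had 6030 and 6279 RPM in WT post-meiotic cells, against 6046 and 5886 RPM in WT meiotic cells (log2 change 0.04 ± 0.05), which overlap. The direction of these 3 MIR families depended on the scale: against gene reads the log2 change was -0.12 for MIR3, -0.18 for MIRc and -0.28 for MIR, and without structural RNAs it was 0.20, 0.14 and 0.03 in that order.

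Against gene reads, 31 of the 32 families fell in WT post-meiotic cells at the adjusted p alone, where 52.1% of all families did, and 7 fell by more than 0.5, where 25.9% did. The median log2 change was -0.44 over the members and -0.25 over all families. On the scale without structural RNAs, 25 fell and 2 rose, where 26.6% of all families fell and 33.7% rose. The standard errors on that scale were between 0.01 and 0.03, against between 0.05 and 0.06 on the scale of all repeat reads. B1F2 (log2 change 0.02), MIR (0.03), MIRb (-0.05), MIRm (0.00) and B4A (-0.02) were the 5 members not called.

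Across 7 ways of scaling the libraries, 10 families fell at the adjusted p in WT whichever was used. They were B1_Mm, B1_Mur3, B1_Mur4, B1_Mus1, B1_Mus2, B1F1, PB1D9, B2_Mm1a, ID and ID2. The log2 change of ID2 ranged from -0.71 to -0.38 over these scalings. No member rose in all of them. How many of all repeat families fell in all 7 was not counted. In WT, 23.8% of all families fell on the scale of all repeat reads and 52.1% against gene reads.

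The same comparison in KO cells gave fewer calls on the scale of all repeat reads and against gene reads. Without structural RNAs the counts were alike. On the scale of all repeat reads, none of 32 passed the rule with the fold minimum, where 19.4% of all families did. At the adjusted p alone 6 fell and 2 rose, while 17% of all families fell and 41.9% rose (edgeR, 965 families). At an unadjusted p under 0.05 there were 13, where 72.6% of all families were, and DESeq2 called 27, of which 26 were lower, where 27.5% of all families were. The median log2 change was -0.03 over the members and 0.16 over all families. The count of 8 dropped to 3 without KO meiotic replicate 2 and to 3 without KO post-meiotic replicate 2. Leydig markers lay between 35.1 and 35.7 CPM in KO post-meiotic cells and between 141 and 219 CPM in KO meiotic cells, Sertoli markers between 92.1 and 92.2 CPM and between 97.2 and 103 CPM, and spermatogonial markers between 57.8 and 64.4 CPM and between 77.9 and 86.7 CPM in that order. Peritubular and fibroblast markers lay between 208 and 276 CPM in KO post-meiotic cells and between 21.7 and 24.8 CPM in KO meiotic cells, leukocyte markers between 66.1 and 78.9 CPM and between 11.98 and 16.9 CPM, endothelial markers between 36.1 and 36.7 CPM and between 22.3 and 23.1 CPM, and red cell markers between 28.0 and 29.8 CPM and between 2.35 and 2.82 CPM in that order.

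ID2 again fell furthest, with 616 and 599 RPM in KO post-meiotic cells, against 700 and 735 RPM in KO meiotic cells (log2 change -0.24 ± 0.06). B2_Mm1a, a young B2 family, had 2237 and 2132 RPM in KO post-meiotic cells, against 2443 and 2554 RPM in KO meiotic cells (log2 change -0.19 ± 0.05). PB1D9, a forerunner of B1, had 5538 and 5348 RPM in KO post-meiotic cells, against 5941 and 6311 RPM in KO meiotic cells (log2 change -0.17 ± 0.05). None of these 3 overlapped between the stages, and all 3 fell at the adjusted p under each of the 7 scalings, in KO as in WT. MIR3 had 1614 and 1547 RPM in KO post-meiotic cells, against 1322 and 1325 RPM in KO meiotic cells (log2 change 0.26 ± 0.05, edgeR adjusted p = 3.61e-06). MIRc had 3636 and 3460 RPM in KO post-meiotic cells, against 3115 and 3119 RPM in KO meiotic cells (log2 change 0.19 ± 0.05). B4A, a main family of the B4 lineage, had 13849 and 13565 RPM in KO post-meiotic cells, against 12234 and 12755 RPM in KO meiotic cells (log2 change 0.13 ± 0.05, edgeR adjusted p = 0.0120), which did not pass, and its log2 change was -0.04 against gene reads.

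Against gene reads 20 of the 32 fell in KO post-meiotic cells, where 27% of all families did, with a median log2 change of -0.20 over the members and -0.01 over all. On the scale without structural RNAs 24 fell and 3 rose, where 24.8% of all families fell and 33.3% rose. The 3 that rose were MIR3, MIRc and B4A. In the plot of stage changes the KO value minus the WT value ran from -0.10 to 0.08 on that scale and from 0.13 to 0.31 against gene reads. The stage comparisons in WT and KO share no library.

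**Figure D3:**
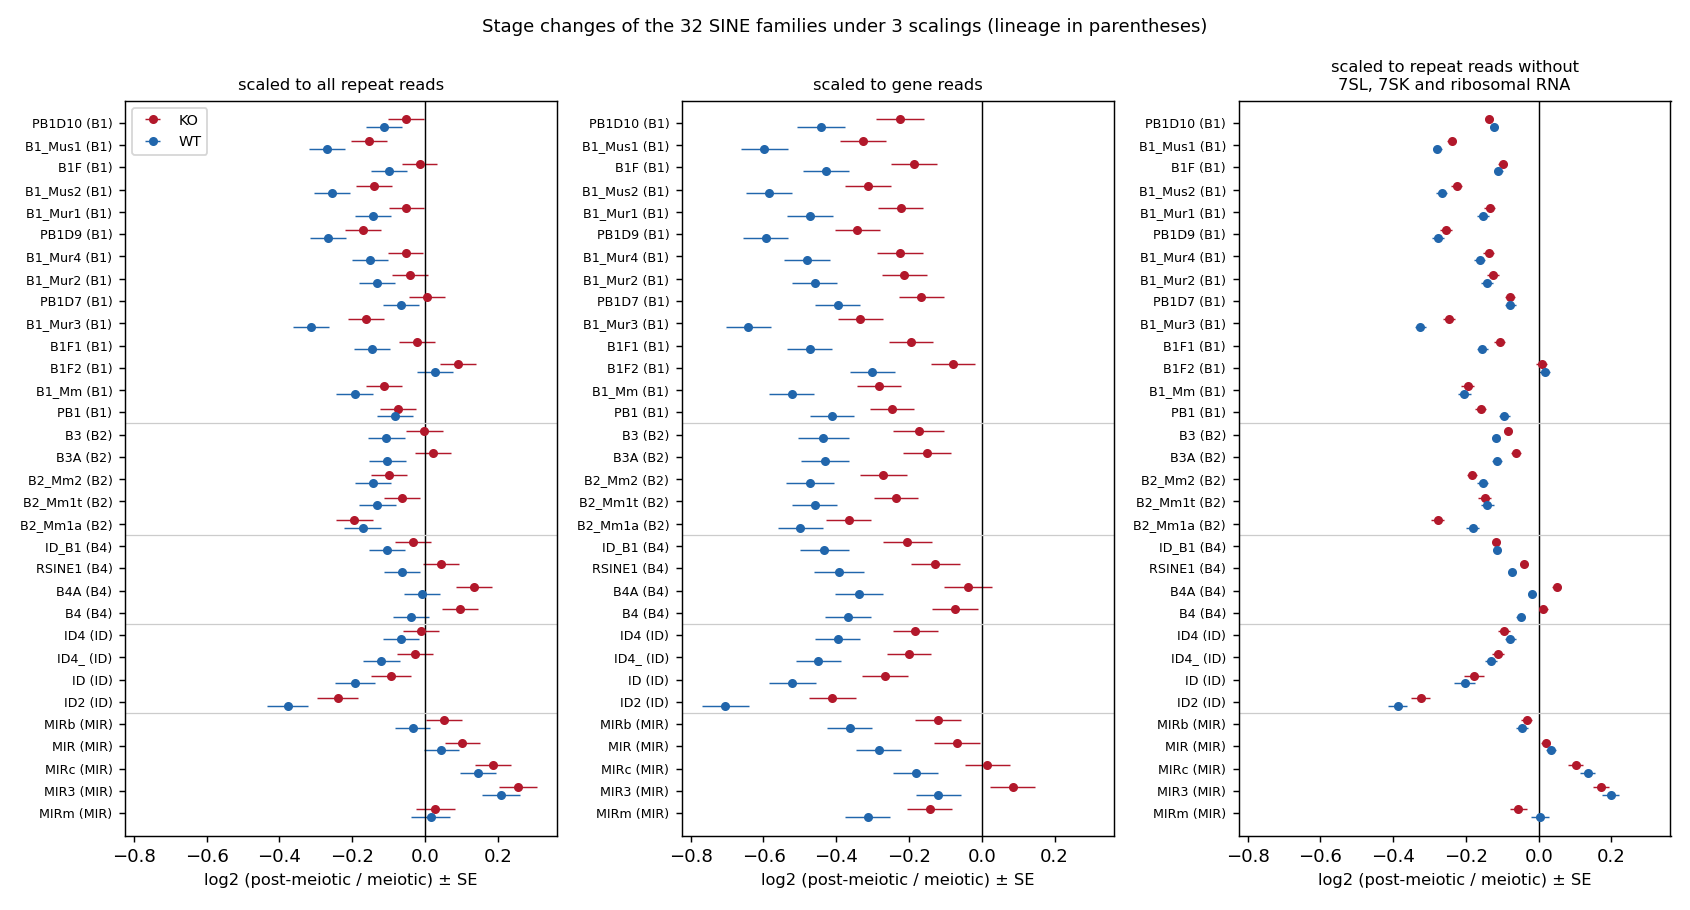
Log2 ratio of post-meiotic over meiotic cells (horizontal axis, ± SE) for each of the 32 SINE families in KO (red) and WT (blue), scaled to all repeat reads, to gene reads and to repeat reads without 7SL, 7SK and ribosomal RNA. Families are grouped by lineage and ordered by mean level. ID2 lies furthest left in each panel, at -0.38 in WT on the first scale, where MIR3 lies furthest right, at 0.26 in KO and 0.21 in WT.

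The highest family of each lineage varied little on the scale of all repeat reads. B3 had 26061 and 25228 RPM in KO post-meiotic cells, 24613 and 25560 RPM in WT post-meiotic cells, 24929 and 26416 RPM in KO meiotic cells and 27760 and 26276 RPM in WT meiotic cells. ID_B1 lay between 16752 and 18692 RPM, with its highest value in a WT meiotic library. PB1D10 lay between 11279 and 12798 RPM, ID4 between 3067 and 3449 RPM and MIRb between 5652 and 6236 RPM, each with its highest value in the same WT meiotic library, replicate 1. None of the 5 was called in any comparison on that scale. Between the stages in WT, B3, ID_B1, PB1D10 and ID4 were each called lower in 5 of the 7 scalings and MIRb in 4. In KO ID_B1, PB1D10 and ID4 were called lower in 4, B3 in 3 and MIRb in 2. For KO over WT in post-meiotic cells B3 was called higher in 2 and each of the others in 1. Bc1 itself is counted as a family of its own, BC1_Mm, which is not among the 32. It had 1135 and 1052 RPM in KO post-meiotic cells, 1060 and 1057 RPM in WT post-meiotic cells, 1480 and 1458 RPM in KO meiotic cells and 1413 and 1399 RPM in WT meiotic cells, with no overlap between the stages.

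The next comparison asked which SINE families the loss of H3.3B changed in meiotic cells. On the scale of all repeat reads none was called: 0 of 32 passed the rule with the fold minimum, where 1.78% of all families did, and 0 passed the adjusted p alone, where 14.5% did (edgeR, 953 families). The smallest adjusted p was 0.0595. At an unadjusted p under 0.05 there were 6, where 38.4% of all families were, and DESeq2 called 3, all higher in KO, where 2.52% of all families were. The members' log2 changes ran from -0.12 to 0.12 with a median of -0.07, beside -0.10 over all families, and 30 of 32 were below 0. With standard errors between 0.05 and 0.06, differences of about the size of the standard error were not detectable. Against gene reads 0 were called, where 5.04% of all families were (1 at an unadjusted p under 0.05, where 18% of all families were), with a median of -0.01 over the members and -0.04 over all.

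B2_Mm1a stood apart from the other members in meiotic cells, and is named after its values were seen. It had 2443 and 2554 RPM in KO meiotic cells, against 2343 and 2266 RPM in WT meiotic cells, and both KO libraries were above both WT ones. Its log2 change on the scale of all repeat reads was 0.12 ± 0.05 (SE, edgeR adjusted p = 0.0701), which did not pass. As a share of SINE reads it was 1.19% and 1.18% in KO meiotic cells, against 1.04% and 1.05% in WT meiotic cells. On the scale without structural RNAs it rose by 0.21 ± 0.02 (edgeR adjusted p = 6.43e-06), a ratio of 1.154. B2_Mm2 rose by 0.11 and B2_Mm1t by 0.09 on that scale, and these 3 were the only members called there, where 2.62% of all families were called higher. They are the 3 families of the list named B2 and not B3. B3 (0.02) and B3A (0.02) were not called. B1_Mm, a young B1 family, changed by 0.06 (edgeR adjusted p = 0.0245). The 5 MIR families lay between -0.03 and -0.02. With any 1 of the 4 meiotic libraries left out, 2 members were called. Spermatid markers summed to between 8028 and 9504 CPM in KO meiotic cells and between 10040 and 11130 CPM in WT meiotic libraries, and leukocyte markers (6 of 6 found) to between 11.98 and 16.9 CPM in KO meiotic cells and between 6.36 and 7.18 CPM in WT meiotic libraries. Peritubular and fibroblast markers lay between 21.7 and 24.8 CPM in KO meiotic cells and between 29.6 and 33.6 CPM in WT meiotic cells, Sertoli markers between 97.2 and 103 CPM and between 107 and 122 CPM, endothelial markers between 22.3 and 23.1 CPM and between 24.03 and 26.3 CPM, and spermatogonial markers between 77.9 and 86.7 CPM and between 66.9 and 74.5 CPM in that order. Leydig and red cell markers overlapped. No listed gene of these sets that was found was at 0 in a whole group, and their part in the result was not tested.

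In post-meiotic cells the result depended on the scale. On that of all repeat reads, 0 of 32 passed with the fold minimum, where 0.728% of all families did, and 0 passed the adjusted p alone, where 7.38% did (edgeR, 962 families). At an unadjusted p under 0.05 there were 0, where 22.2% of all families were, and DESeq2 called 2, both higher in KO, where 1.35% of all families were. The log2 changes ran from -0.09 to 0.09, with a median of 0.04 over the members and 0.00 over all. B2_Mm1a was the highest, with 2237 and 2132 RPM in KO post-meiotic cells, against 2034 and 2061 RPM in WT post-meiotic cells (log2 change 0.09 ± 0.05, edgeR adjusted p = 0.277). The 5 MIR families were all below 0, from -0.09 to -0.03.

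Against gene reads, 27 of the 32 families (84.4%) rose in KO post-meiotic cells at the adjusted p, where 42.6% of all families rose. Log2 changes ran from 0.13 to 0.32, all under the fold minimum, with a median of 0.26 over the members and 0.22 over all families. All 32 members were higher in both KO libraries than in both WT libraries, as were 78.4% of all families. B2_Mm1a had 387 and 392 reads per 1000000 gene reads in KO post-meiotic cells, against 318 and 306 in WT post-meiotic cells. B1_Mus1 had 1443 and 1470 in KO, against 1194 and 1172 in WT. MIR3 had 279 and 284 in KO, against 253 and 252 in WT (log2 change 0.16, edgeR adjusted p = 0.0220), and was among the 5 not called, with MIR, MIRc, MIRm and PB1. The count of 27 dropped to 8 without WT post-meiotic replicate 1, to 0 without WT post-meiotic replicate 2, to 17 without KO post-meiotic replicate 1 and to 1 without KO post-meiotic replicate 2. With TMM factors over genes added to the gene total it was 2, where 5.09% of all families rose. Over these same libraries, sums of markers of other cells differed in both directions. Peritubular and fibroblast markers (6 of 6 found) lay between 208 and 276 CPM in KO post-meiotic and between 108 and 142 CPM in WT post-meiotic libraries, and leukocyte markers between 66.1 and 78.9 CPM in KO and between 36.6 and 39.1 CPM in WT. Red cell markers lay between 28.0 and 29.8 CPM in KO and between 10.6 and 11.1 CPM in WT, Leydig markers between 35.1 and 35.7 CPM in KO and between 18.2 and 27.5 CPM in WT, Sertoli markers between 92.1 and 92.2 CPM in KO and between 69.0 and 81.7 CPM in WT, and spermatogonial markers between 57.8 and 64.4 CPM in KO and between 52.9 and 53.1 CPM in WT. Endothelial markers were lower, between 36.1 and 36.7 CPM in KO and between 44.0 and 46.2 CPM in WT. Spermatid markers lay between 28250 and 29320 CPM in KO post-meiotic and between 31420 and 31800 CPM in WT post-meiotic libraries. No listed gene of these sets that was found was at 0 in a whole group, and their part in the result was not tested.

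On the scale without structural RNAs, 12 of the 32 (37.5%) rose in KO post-meiotic cells and none fell, where 2.91% of all families were called higher. The log2 changes lay between -0.08 and 0.11, with a median of 0.05 over the members and 0.01 over all families. All 5 families of the B2 lineage were among the 12, with B2_Mm1a at 0.11, B2_Mm2 at 0.09, B2_Mm1t at 0.08, B3A at 0.07 and B3 at 0.05. From the B1 lineage B1_Mus1 (0.09), B1_Mus2 (0.09), B1_Mur2 (0.07), B1_Mur3 (0.09) and B1_Mur4 (0.07) rose, and from the B4 lineage B4 (0.06) and B4A (0.07). No ID or MIR family was called. The count of 12 dropped to 5 without WT post-meiotic replicate 1, to 0 without WT post-meiotic replicate 2, to 2 without KO post-meiotic replicate 1 and to 4 without KO post-meiotic replicate 2.

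**Figure D4:**
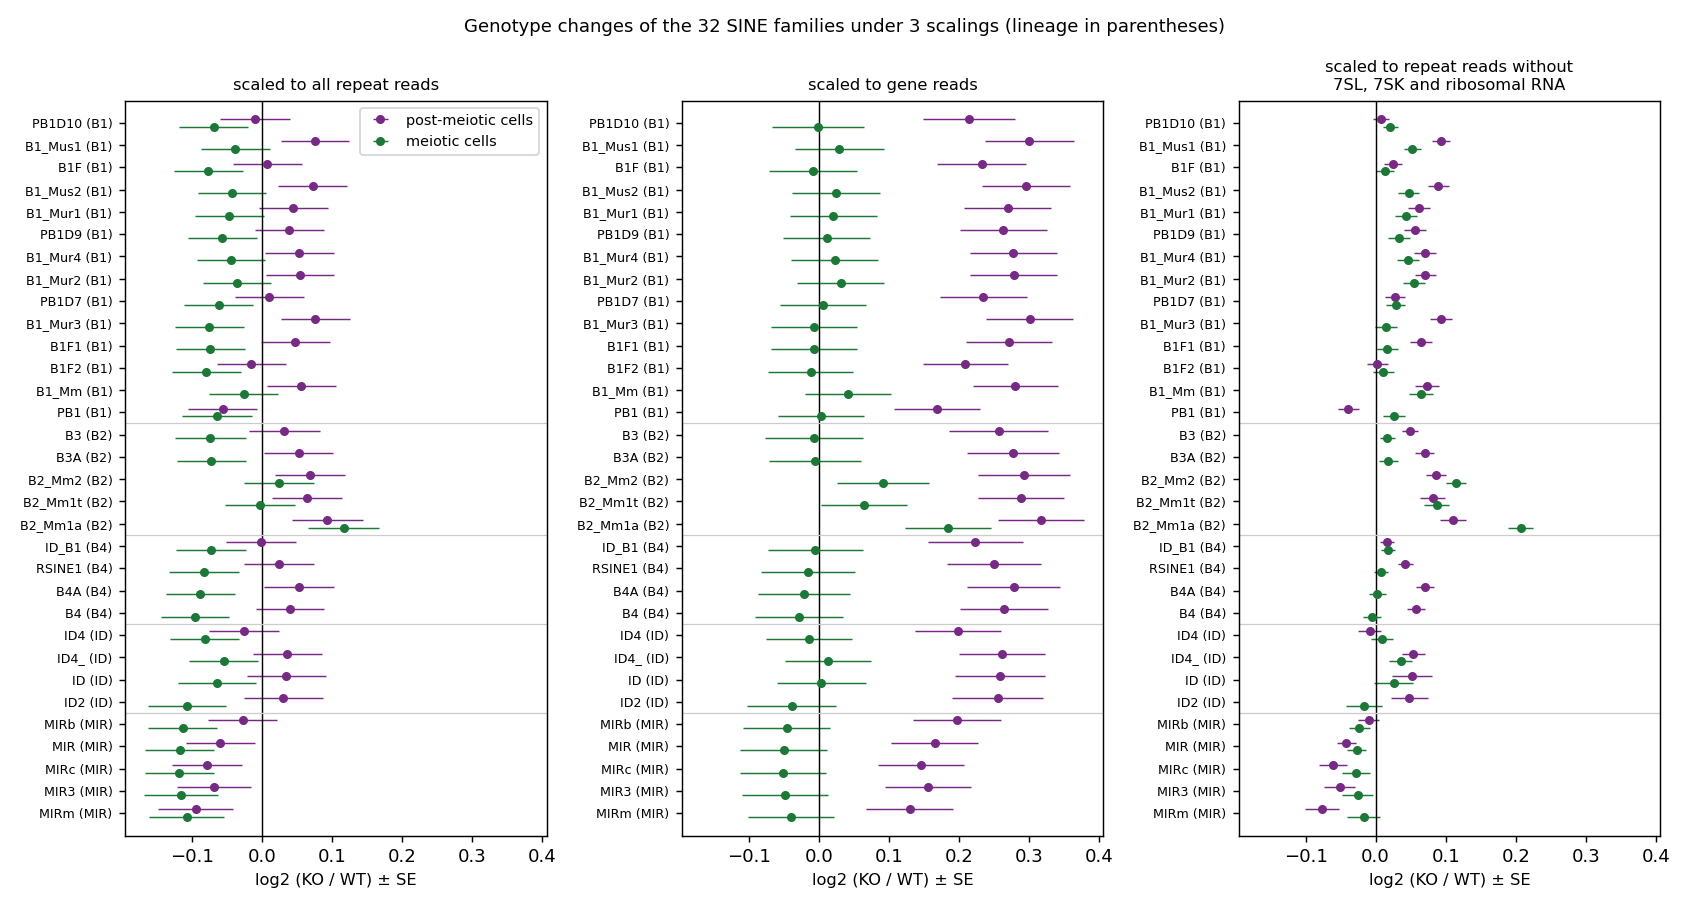
Log2 ratio of KO over WT (horizontal axis, ± SE) for each of the 32 SINE families in post-meiotic (purple) and meiotic (green) cells under 3 scalings. On the scale of all repeat reads the values run from -0.12 to 0.12. Against gene reads the post-meiotic values run from 0.13 to 0.32. On the third scale B2_Mm1a in meiotic cells stands out at 0.21.

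Whether the effect of the KO differed between the stages was tested directly. On the scale of all repeat reads, 0 of 32 members passed with the fold minimum, where 1.23% of all families did, and 0 at the adjusted p alone, where 3.8% did (edgeR, 973 families). At an unadjusted p under 0.05 there were 2, where 24.4% of all families were, and DESeq2 called 0, where it called 4.42% of all families. The median difference was 0.09 over both the members and all families. Against gene reads 6 members had a higher KO effect in post-meiotic cells, where 23.6% of all families did. Their differences lay between 0.27 and 0.31, beside a median of 0.24 over the members and 0.25 over all families. On the scale without structural RNAs 0 were called, where 4.62% of all families were (9 at an unadjusted p under 0.05, where 28.1% of all families were), and the largest difference in size was that of B2_Mm1a, at -0.10 ± 0.03 (edgeR adjusted p = 0.0308).

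**Figure D5:**
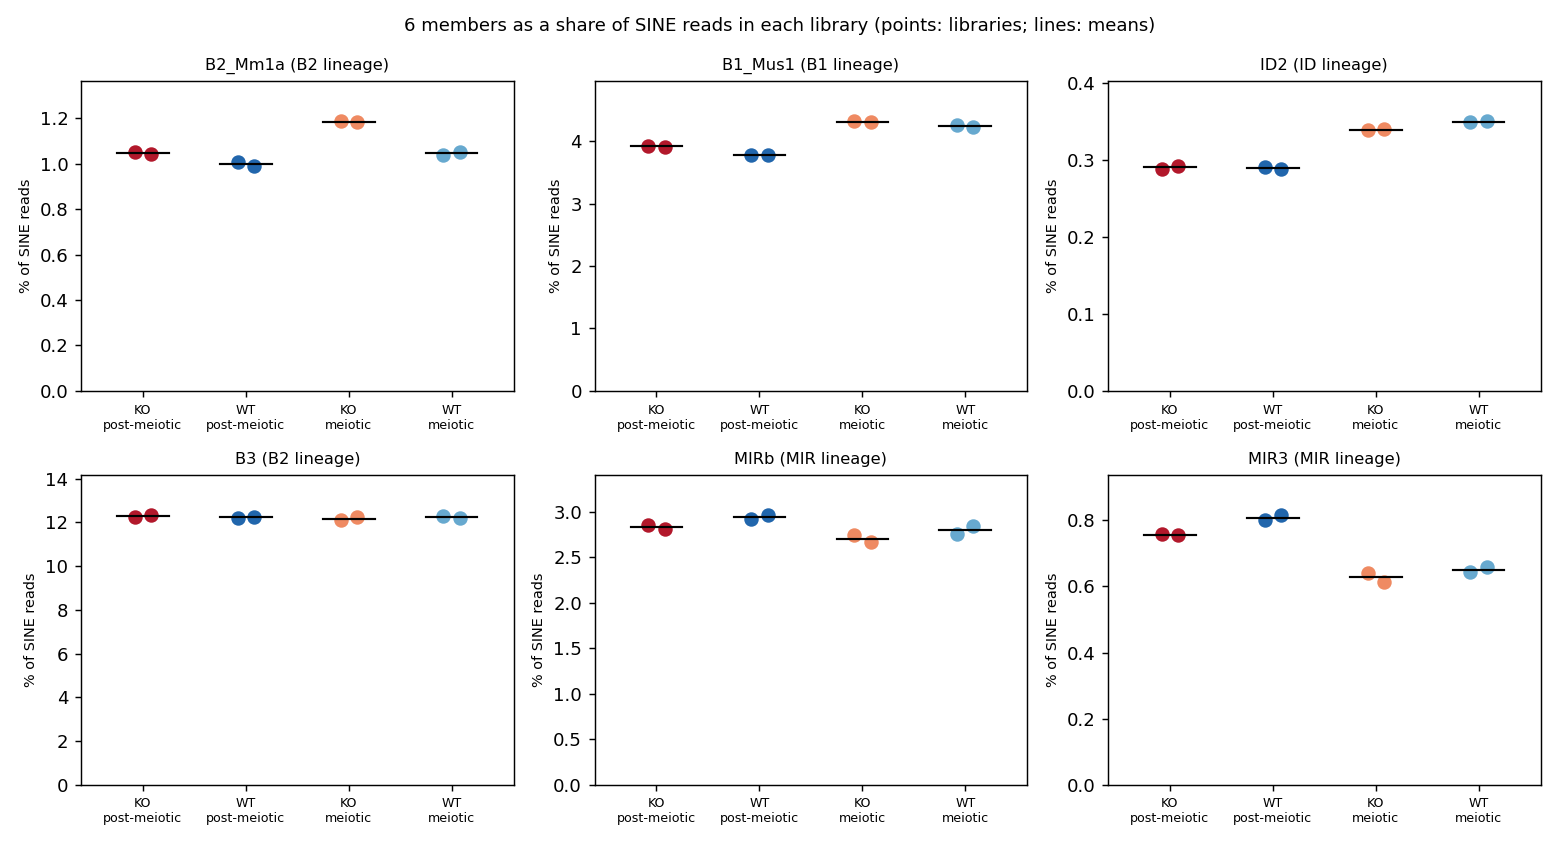
The 6 members shown as a percentage of SINE reads (vertical axes, starting at 0) in KO post-meiotic cells, WT post-meiotic, KO meiotic and WT meiotic cells. Points are libraries and lines means of 2. B2_Mm1a is highest in KO meiotic cells (1.19% and 1.18%), ID2 and B1_Mus1 are lower and MIR3 higher in post-meiotic cells, and B3 stays between 12.1% and 12.3%.

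Genes of SINE transcription and control were then read from the gene table, in 4 lists of 52 genes in all, each of which passed the filter on low counts. Between the stages most were lower in post-meiotic cells. In WT 35 fell and 7 rose (edgeR's quasi-likelihood test, adjusted p under 0.01 over 20412 genes), while 32.4% of all genes fell and 29.6% rose, and 16 of them fell by more than 1 on the log2 scale. In KO 39 fell and 6 rose, while 31.5% of all genes fell and 29.5% rose, and 15 fell by more than 1. The share of all genes past that fold was not counted, here or between KO and WT.

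RNA polymerase III is the enzyme that reads SINE promoters, and 9 of its 13 subunit genes fell and 1 rose in WT, with 10 lower and 1 higher in KO. Polr3b, for its second largest subunit, was at 10.4 and 10.6 CPM in WT post-meiotic cells, against 39.0 and 39.6 CPM in WT meiotic cells (log2 change -1.90 ± 0.07). Polr3f was the 1 that rose, at 18.9 and 18.98 CPM in KO post-meiotic cells, against 14.4 and 15.0 CPM in KO meiotic cells. Of its 12 transcription factors and repressor, 9 fell and 1 rose in WT, and 10 fell and 1 rose in KO. Gtf3c4, of the factor TFIIIC that binds the B box, fell by 1.497 on the log2 scale in WT and by 1.17 in KO, with 43.8 and 42.3 CPM in WT post-meiotic cells, against 123 and 120 CPM in WT meiotic cells. Gtf3c2, of the same factor, rose by 0.50 ± 0.06 in WT.

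Among 10 proteins that bind or edit SINE RNA, 9 fell and 1 rose at each genotype. The 1 that rose was the RNA editing enzyme gene Adarb1, by 0.70 in WT and 0.38 in KO. Among 17 silencing and chromatin genes, 8 fell and 4 rose in WT, and 10 fell and 3 rose in KO. Cbx1, for a heterochromatin protein, fell by 2.05 in WT and fell by 1.91 in KO, and Dnmt1, for the maintenance DNA methyltransferase, fell by 2.09 in WT and fell by 1.77 in KO. Suv39h2, for a histone H3 lysine methyltransferase of the testis, rose by 0.73 in WT and 0.44 in KO, and Dnmt3l, a cofactor of DNA methylation in germ cells, rose by 0.79 in WT and 0.47 in KO.

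Between KO and WT fewer of these genes were called than between the stages, as was true of all genes. In meiotic cells 9 of 52 rose and 3 fell, while 8.98% of all genes rose and 8.55% fell, and none changed by more than 1 on the log2 scale. Suv39h1, a relative of Suv39h2, was at 11.2 and 11.95 CPM in KO meiotic cells, against 7.42 and 7.11 CPM in WT meiotic cells (log2 change 0.67 ± 0.09, edgeR adjusted p = 1.09e-05). Dnmt3a (0.51), for a de novo DNA methyltransferase, Hells (0.36), for a chromatin remodeler, and Ssb (0.36), for the La protein that binds polymerase III transcripts, also rose. Dhx9, for an RNA helicase, had 59.9 and 72.8 CPM in KO meiotic cells, against 119 and 105 CPM in WT meiotic cells (log2 change -0.75 ± 0.08), and Gtf3c4 (-0.33) and Gtf3c1 (-0.21) fell too.

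In post-meiotic cells 8 of 52 rose and 3 fell in KO, while 12.4% of all genes rose and 11.6% fell, and none changed by more than 1 on the log2 scale. Polr3b rose by 0.47 ± 0.08, Ssb by 0.41, Dicer1, for the nuclease that cuts double-stranded RNA, by 0.50, and Setdb1, for a histone methyltransferase of retroelement silencing, by 0.25. Suv39h2 had 54.1 and 52.5 CPM in KO post-meiotic cells, against 71.8 and 71.2 CPM in WT post-meiotic cells (log2 change -0.42 ± 0.05), and Trim28 (-0.23), for the corepressor of zinc finger proteins at retroelements, and Polr1c (-0.29), for a subunit shared by polymerases I and III, fell. With library totals in place of TMM factors, 19 genes were called instead of 11, of which 18 were higher. The share of all genes called with library totals is not given here, so this count has no background beside it. The KO effect differed between the stages for Dhx9 (0.82 ± 0.12) and Gtf3c4 (0.33 ± 0.07) alone of the 52 genes. Of all 20412 genes, 343 had a higher KO effect in post-meiotic cells and 188 a lower one (edgeR, adjusted p under 0.01).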

How the data were processed

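Cells of single mice were fractionated on albumin gradients. The authors made stranded total RNA libraries and sequenced them as single-end reads, and alignment to the mm9 genome used TopHat2 2.0.14 with Bowtie2 2.1.0. The deposited gene counts are unnormalized unique reads per Ensembl gene from HTSeq 0.6.1. The deposited repeat counts are unnormalized reads per RepeatMasker family, made by a method of an earlier study. The RNA-seq methods keep reads with a single position, and whether this held for the repeat counts is not given in the sources used here. Related families share sequence, so reads may be split among them and the 32 members are not independent. The deposited columns of fold changes and p-values, and the table of piRNA clusters, were not used.

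Repeat counts were tested with edgeR 4.0.16 (glmQLFit, robust, in R 4.3.3) over all 8 libraries, with the repeat total as library size, for families of at least 5 RPM on average in a group compared. Changes were called at an adjusted p under 0.01, with and without an absolute log2 change over 0.5. Standard errors are the log2 change over the root of F. Genes passing filterByExpr were tested likewise with TMM factors. DESeq2 1.42.0, other scalings, filters, a replicate block and leaving out each library were alternatives. On simulated repeat counts only the edgeR fit scaled to the repeat total was tested, for KO over WT in post-meiotic cells. The scaling without structural RNA families (7SLRNA, 7SK, LSU-rRNA_Hsa, SSU-rRNA_Hsa, 5S) was added after seeing the data. The edgeR p-values rest on the spread between the 2 libraries of each group, pooled over the 4 groups. Class-level values were tested by exact permutation. Named members were the highest of each lineage and the 3 largest increases and decreases between stages, and named genes up to 4 a direction with the smallest adjusted p, of which 1 is not reported here. The members, lists and rules were chosen with earlier results of these data known.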

Additional observations from a re-analysis of the deposited data

Results flagged for a closer look

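On the scale of gene reads, 6 SINE families (18.8% of the 32, beside 23.6% of all repeat families tested) had a KO effect that was larger at the post-meiotic stage than at the meiotic stage (edgeR test of the difference of the 2 effects). The differences on the log2 scale were 0.31 for B1_Mur3, 0.29 for B4, 0.29 for ID2, 0.28 for B1F1, 0.30 for B4A and 0.27 for B1_Mus2, with standard errors near 0.09 and adjusted p-values between 0.00281 and 0.00924. The median difference of all 973 repeat families on that scale was 0.25, and none of the 6 was called on the scale of all repeat reads or on that without structural RNAs.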

How the results depend on the processing

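Most calls moved with the library scaling, and none of the causes was tested. Counts are of members called at the adjusted p alone, unless said otherwise. For KO over WT in meiotic cells 0 became 3 with TMM factors, 3 with RLE factors, 3 by DESeq2, 3 without structural RNAs and 2 against the SINE total. For KO over WT in post-meiotic cells 0 became 27 against gene reads, 2 with TMM over genes added, 5 with TMM over repeats, 6 with RLE, 2 by DESeq2, 12 without structural RNAs and 4 against the SINE total. For the stages in WT 14 became 31 against gene reads, 29 with TMM over genes added, 29 with TMM, 29 with RLE, 28 by DESeq2 and 27 without structural RNAs. With the fold minimum the 0 in WT became 7 against gene reads and 2 with TMM over genes added, and 14 with no minimum. For the stages in KO 8 became 20 against gene reads, 29 with TMM, 30 with RLE, 27 by DESeq2, 5 against repeat reads outside SINEs, 27 without structural RNAs and 19 against the SINE total, and the 0 with the fold minimum became 8 with none. For the difference of the KO effects 0 became 6 against gene reads and 1 with TMM over genes added. Against the SINE total, 449 of all 965 families rose and 158 fell between the stages in KO. For KO over WT on that scale, 16 of 953 rose and 80 fell in meiotic cells. In post-meiotic cells 7 of 962 rose and 79 fell. Shares of all families with TMM or RLE factors, or against repeat reads outside SINEs, are not given in this section. Deviations of same-numbered libraries had correlations between -0.0927 and 0.0608 over 919 families. With 2 libraries a group, this cannot tell whether same-numbered libraries came from the same mouse. With the replicate number as a block the WT stage count was 9 and the KO stage count 6.

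Leaving out 1 library at a time gave between 6 and 14 for the stages in WT, between 3 and 8 in KO, and 0 for each KO over WT comparison and for their difference. Against gene reads KO over WT in post-meiotic cells gave between 0 and 31. Without structural RNAs the ranges were between 2 and 3 and between 0 and 12 for KO over WT in meiotic and post-meiotic cells, and between 25 and 27 and between 24 and 27 for the stages in WT and KO. The log2 ratio of SINE shares was between -0.10 and -0.03 for KO over WT in meiotic cells, between 0.00 and 0.05 in post-meiotic cells, between -0.14 and -0.07 for the stages in WT and between -0.05 and 0.02 in KO. With no library left out, those ratios against gene reads were 0.0039, 0.25, -0.43 and -0.19, and without structural RNAs 0.026 for KO over WT in meiotic cells and -0.10 for the stages in KO. SINE-related genes called between KO and WT post-meiotic cells went to 19 with library totals only, against 11, with no share of all genes beside the 19.

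Directions turned for MIR between the stages in WT (-0.28 against gene reads, -0.15 with TMM over genes added, -0.021 with TMM, -0.027 with RLE, -0.021 by DESeq2), for MIRc (-0.18 and -0.045 against gene reads without and with TMM), for MIR3 (-0.12 against gene reads) and for B4A in KO (-0.037 against gene reads, -0.016 with TMM, -0.021 with RLE, -0.018 by DESeq2). With 2 libraries a group, p-values rest on a spread shared over groups.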
